A study of Mus musculus with 8 samples.

Results

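The genes described here are the 7 CC chemokine receptor genes Ccr2, Ccr4, Ccr6, Ccr7, Ccr8, Ccr9 and Ccr10, taken as every probe set whose annotation carries the Entrez identifier of 1 of these genes and no other. This rule found 13 probe sets among the 45037 of the array that are not controls, and 7 of the 20665 genes represented by a probe set with 1 identifier. Ccr2 and Ccr9 have 4 probe sets each and the other receptors have 1 each. No measured value was used to choose them.

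The arrays were Affymetrix Mouse430_2 arrays of sorted regulatory T cells (Treg cells), the CD4+CD25+ T cells that carry the transcription factor Foxp3, from untreated mice aged 14 to 17 weeks. RFP and GFP are reporter fluorochromes. The labels describe GFP-RFP+ cells as peripherally induced and GFP+RFP+ cells as thymically induced, and do not give the strain or the alleles that carry the reporters. Cells came from lymph nodes (LN) or spleen pooled over 20 mice, 50 ng of RNA was labelled for each array, and each of the 4 groups was hybridized to 2 arrays that the labels call technical replicates. Each group is therefore 1 pool. The spread between the 2 arrays of a group is technical, and the population comparison is repeated only across the 2 organs.

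Chemokine receptors are seven-transmembrane proteins that couple to inhibitory G proteins and steer cells along gradients of small secreted chemokines. CCR7 binds CCL19 and CCL21 and brings T cells into lymph nodes and the T cell zone of the spleen, and naive and central memory cells carry it. CCR2 binds CCL2 and related ligands and directs monocytes and activated T cells to inflamed tissue. CCR4, CCR8 and CCR10 are known from skin-homing and barrier-tissue T cells, CCR4 and CCR8 also from activated Treg cells. CCR6 binds CCL20 and guides cells to mucosal surfaces, and CCR9 binds CCL25 and guides cells to the small intestine and, in precursors, to the thymus.

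Promoters of 4 receptors are shown, 3 of receptors with a higher signal in GFP-RFP+ cells (Ccr2, Ccr4 and Ccr8) and 1 of the receptor with a lower signal there (Ccr9). Each runs from 250 bases before to 50 bases after the annotated start, 5′ to 3′ on the strand of the gene, from RefSeq on the build GRCm38.p6. RefSeq promoters were matched for 5 of the 7 genes, Ccr6 being the fifth, with 2 promoters. Ccr6 also had a higher signal in GFP-RFP+ cells, by 0.29 on the log2 scale, and its promoters are not shown. Capitals mark matches, on either strand, to any of 8 short motifs, and adjoining or overlapping matches run together. The letters searched were AGATAA for GATA factors, TGANTCA for AP-1, TGTTTAC for FOXO factors, TTCNNNGAA for STAT factors, GGG and CC with 5 bases between them for NF-kB, CCACCC for KLF factors, CAGCTG for E-box factors and TGTGGT for RUNX factors.
Ccr2 (chr9:124101933-124102232, plus strand): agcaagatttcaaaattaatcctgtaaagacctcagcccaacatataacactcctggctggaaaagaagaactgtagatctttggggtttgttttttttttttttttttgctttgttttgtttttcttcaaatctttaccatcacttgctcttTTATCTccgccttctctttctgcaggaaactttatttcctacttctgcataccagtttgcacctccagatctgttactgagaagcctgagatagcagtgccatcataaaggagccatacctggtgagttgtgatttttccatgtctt
Ccr4 (chr9:114496495-114496794, minus strand): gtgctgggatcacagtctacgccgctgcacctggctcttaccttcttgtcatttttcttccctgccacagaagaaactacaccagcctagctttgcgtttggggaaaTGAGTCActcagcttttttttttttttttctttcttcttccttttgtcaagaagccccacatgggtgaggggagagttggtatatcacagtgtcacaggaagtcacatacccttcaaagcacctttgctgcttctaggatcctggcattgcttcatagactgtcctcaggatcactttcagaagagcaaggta
Ccr8 (chr9:120091883-120092182, plus strand): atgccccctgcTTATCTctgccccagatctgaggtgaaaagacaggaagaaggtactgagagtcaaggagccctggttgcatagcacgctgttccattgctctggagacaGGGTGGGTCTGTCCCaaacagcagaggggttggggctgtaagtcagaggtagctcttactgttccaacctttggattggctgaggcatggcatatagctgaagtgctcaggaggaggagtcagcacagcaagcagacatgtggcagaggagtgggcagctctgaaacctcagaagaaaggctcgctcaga
Ccr9 (chr9:123766961-123767260, plus strand): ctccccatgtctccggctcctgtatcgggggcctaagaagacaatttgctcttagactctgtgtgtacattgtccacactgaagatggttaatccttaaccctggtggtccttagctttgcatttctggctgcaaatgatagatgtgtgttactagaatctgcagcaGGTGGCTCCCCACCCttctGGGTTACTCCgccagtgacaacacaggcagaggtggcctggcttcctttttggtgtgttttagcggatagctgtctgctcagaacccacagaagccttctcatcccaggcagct

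The GATA letters occurred once each in the windows of Ccr2 and Ccr8, and the AP-1 letters once in that of Ccr4. The windows of Ccr8 and Ccr9 each held 2 matches to the NF-kB letters and 1 to the KLF letters. Of the 2 Ccr6 windows, not shown, the first held 2 STAT matches and 1 RUNX match and the second 1 GATA match and 2 NF-kB matches. No FOXO or E-box letters were found in any of the 6. Of 32851 RefSeq promoters of the same length, 11.2% held the GATA letters, 7.81% the AP-1 letters, 3.65% the FOXO letters, 8.3% the STAT letters, 50.8% the NF-kB letters, 31.5% the KLF letters, 16.3% the E-box letters and 16.8% the RUNX letters. These matches describe the letters only.

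All 7 receptors were called present by the authors' detection call in at least 6 of the 8 arrays by at least 1 probe set. These calls were counted over arrays without assigning them to groups. Of the 13 probe sets, 6 were called present in all 8 arrays, compared with 38.8% of all probe sets that are not controls. These 6 were 2 of Ccr2, 1 of Ccr9 and the probe sets of Ccr4, Ccr6 and Ccr7. Ccr8 and Ccr10 were each called present in 6 arrays. Of the other Ccr9 probe sets, 2 were present in 7 arrays and 1446038_at in 2. The other Ccr2 probe sets were 1421188_at, present in 5 arrays, and 1460067_at, present in none and therefore not tested.

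Over the 8 arrays, the log2 signal of Ccr7 ran from 10.14 to 11.75 with a median of 10.85. Ccr6 followed, with 9.38 to 10.52 and a median of 9.89. The brightest Ccr9 probe set, 1427419_x_at, ran from 6.58 to 8.52 with a median of 7.77, and the brightest of Ccr2, 1421186_at, from 5.68 to 8.25 with a median of 7.17. Ccr8 had a median of 5.26 and a range of 3.57 to 6.21, Ccr4 a median of 4.93 and a range of 3.49 to 5.23, and Ccr10 a median of 4.68 and a range of 3.33 to 6.04. The ranges of Ccr7 and Ccr6 overlapped each other but lay above those of the other 5 receptors, and the ranges of Ccr4, Ccr8 and Ccr10 overlapped. Probe sets differ in how brightly they report a transcript, so this order is one of signals, not of transcript abundance.

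The mean signal of Ccr7 stood above 98.2% of all probe sets that are not controls, and that of Ccr6 above 95.1%. The widest span over the arrays, 2.71 on the log2 scale, was that of Ccr10. Spans of 2.64 for Ccr8 and 2.58 for the brightest Ccr2 probe set were close to it, and that of Ccr6 was 1.15.

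**Figure D1:**
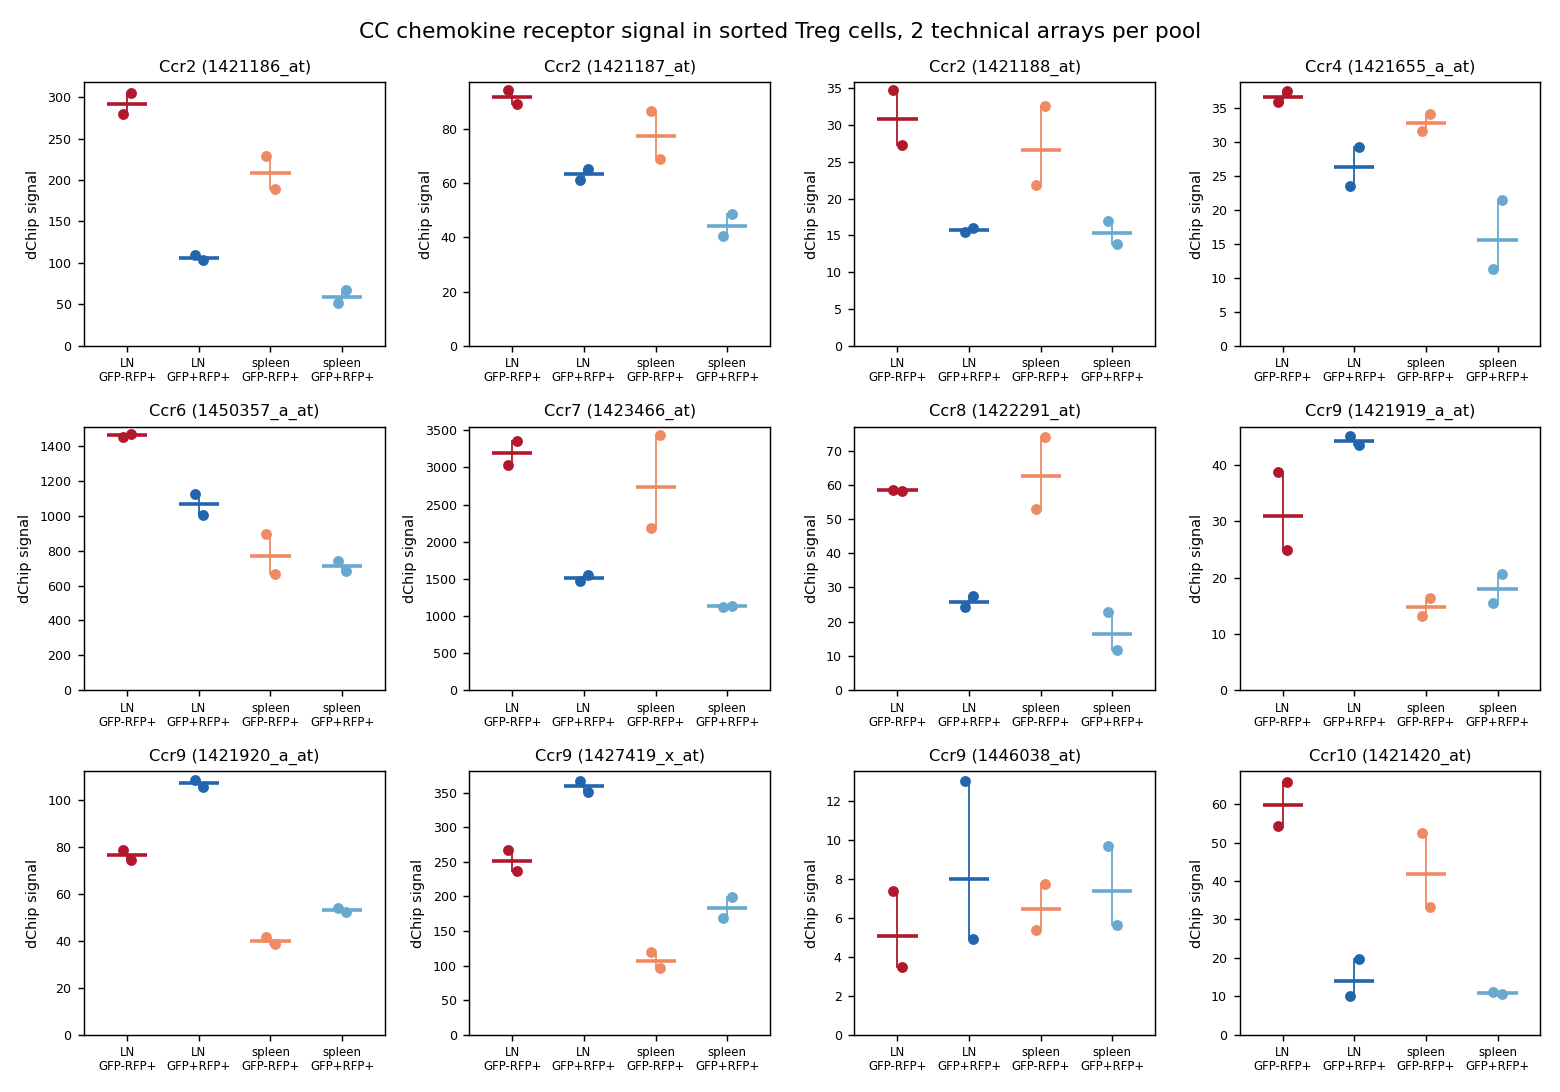
dChip signal (linear scale, y axis from 0) of the 12 tested receptor probe sets in the 4 groups, with points for the 2 technical arrays of each pool and a bar for their mean on the log2 scale. Ccr2, Ccr4, Ccr7, Ccr8 and Ccr10 were higher in both GFP-RFP+ pools, Ccr9 was higher in lymph nodes, and the fourth Ccr9 probe set, 1446038_at, had signals from 3.5 to 13.07 with no order by group.

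The comparison of the populations asks how Treg cells labelled as peripherally and thymically induced differ. Differences below are on the log2 scale, GFP-RFP+ minus GFP+RFP+, with organ as a second term, over 2 pools per population and with the 2 arrays of a pool averaged. The test was limma with variances moderated along the trend with signal, Benjamini-Hochberg adjustment over 30328 probe sets and a threshold of 0.05. Of the 12 receptor probe sets tested, 8 passed as higher in GFP-RFP+ cells, from 6 genes, and 2 as lower, both of Ccr9. Among all probe sets tested, 16.5% passed as higher and 9.1% as lower. These calls depend on the trend: without it limma called none of the 30328 probe sets, with 7687 at an unadjusted p under 0.05, and the adjusted p-values of the 10 receptor probe sets lay between 0.105 and 0.303. Quantile normalization moved the split of all calls from 64.4% higher to 46.1% higher and kept the direction of all 12 receptor probe sets.

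Ccr7, the receptor of lymphoid homing, had signals of 3034 and 3363 in lymph node GFP-RFP+ cells and of 1474 and 1553 in lymph node GFP+RFP+ cells. In spleen its signals were 2189 and 3433 in GFP-RFP+ cells and 1127 and 1139 in GFP+RFP+ cells. All 4 GFP-RFP+ arrays lay above all 4 GFP+RFP+ arrays. The difference was 1.18 ± 0.06 (SE, 2 pools each; limma adjusted p = 3.02e-12), or 2.26-fold. This SE, like those below, is the moderated value of limma and not the spread of the pools. It draws mostly on other probe sets, with 18.3 prior against 1 residual degree of freedom. Without the trend the SE of Ccr7 was 0.10.

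Ccr2, the inflammatory receptor, had signals of 279.9 and 305.3 by its brightest probe set in lymph node GFP-RFP+ cells and of 109.0 and 103.1 in lymph node GFP+RFP+ cells. In spleen, the signals were 229.3 and 189.8 in GFP-RFP+ cells and 51.1 and 67.1 in GFP+RFP+ cells. The populations did not overlap, and the difference was 1.65 ± 0.11 (SE; limma adjusted p = 2.75e-10), or 3.13-fold. The dimmer probe sets 1421187_at and 1421188_at gave the same direction and smaller differences, of 0.67 ± 0.13 (limma adjusted p = 7.12e-04) and 0.89 ± 0.23 (limma adjusted p = 0.0058). With a pseudocount of 16 added before the log, the difference of 1421188_at was 0.51. The fourth, 1460067_at, had signals of 4.6 to 9.06 and was not called present in any array.

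Of the receptors known from skin and barrier tissue, Ccr10 had signals of 54.3 and 65.8 in lymph node GFP-RFP+ cells and 10.1 and 19.7 in lymph node GFP+RFP+ cells. In spleen the Ccr10 signals were 52.6 and 33.2 in GFP-RFP+ cells and 11.0 and 10.5 in GFP+RFP+ cells. No GFP-RFP+ array fell within the GFP+RFP+ range. The difference was 2.02 ± 0.21 (SE; limma adjusted p = 2.68e-07). The GFP+RFP+ signals were dim, and with a pseudocount of 16 added before the log the difference was 1.22 ± 0.12 (limma adjusted p = 2.18e-06). Without the pseudocount the Ccr10 difference exceeded that of the brightest Ccr2 probe set, and with it the Ccr2 difference, 1.46, was the larger.

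Ccr8 differed in the same direction, with signals of 58.4 and 58.3 against 24.3 and 27.5 in lymph nodes. In spleen its signals were 53.0 and 73.9 in GFP-RFP+ cells against 22.8 and 11.9 in GFP+RFP+ cells. The populations were apart in both organs, and the difference was 1.55 ± 0.19 (SE; limma adjusted p = 3.82e-06). With the pseudocount it was 1.04.

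Ccr4, the receptor of CCL17 and CCL22, differed less. Its signals were 35.9 and 37.5 against 23.5 and 29.4 in lymph nodes, and 31.7 and 34.2 against 11.3 and 21.4 in spleen. All GFP-RFP+ arrays again lay above all GFP+RFP+ arrays, but the 2 spleen GFP+RFP+ arrays were 0.93 apart on the log2 scale. The difference was 0.78 ± 0.21 (SE; limma adjusted p = 0.00883), and 0.47 with the pseudocount.

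Ccr9, the receptor of gut homing, was the only 1 of the 7 receptors with a call in the opposite direction. Its brightest probe set had signals of 267.5 and 237.5 in lymph node GFP-RFP+ cells against 367.6 and 351.6 in lymph node GFP+RFP+ cells. In spleen, the signals were 119.7 and 95.8 against 168.5 and 199.8. The populations were apart within each organ and overlapped across organs. The difference was -0.64 ± 0.09 (SE; limma adjusted p = 1.79e-05), which is 1.56-fold higher in GFP+RFP+ cells. The suffix of this probe set, 1427419_x_at, marks probes that may bind other transcripts as well. Probe set 1421920_a_at gave -0.45 ± 0.13 (limma adjusted p = 0.0161). Probe set 1421919_a_at gave -0.40 ± 0.21 (limma adjusted p = 0.189) and 1446038_at gave -0.43 ± 0.43 (limma adjusted p = 0.533), and neither passed.

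Ccr6, the receptor of CCL20, had signals of 1456 and 1471 in lymph node GFP-RFP+ cells and 1128 and 1007 in lymph node GFP+RFP+ cells. In spleen the arrays overlapped, with 895.0 and 665.2 in GFP-RFP+ cells and 740.2 and 683.0 in GFP+RFP+ cells. The difference was 0.29 ± 0.07 (SE; limma adjusted p = 0.00433), or 1.22-fold. The call rested on 1 array: without the first spleen GFP-RFP+ array the difference was 0.18 and the limma adjusted p was 0.201.

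Within an organ each population is 1 pool, so these differences have no test. Past 1 on the log2 scale, with the arrays of the populations apart, were 4 of the 12 receptor probe sets in lymph nodes and 5 in spleen, all higher in GFP-RFP+ cells. Among all 30328 probe sets, 3.79% were higher and 1.69% lower by this rule in lymph nodes, and 4.33% higher and 1.77% lower in spleen. In lymph nodes the 4 were Ccr10 at 2.09, the brightest Ccr2 probe set at 1.46, Ccr8 at 1.17 and Ccr7 at 1.08. In spleen, Ccr10 was at 1.96, Ccr8 at 1.93, Ccr2 at 1.83, Ccr7 at 1.27 and Ccr4 at 1.08. Ccr4 was at 0.48 in lymph nodes. Whether these differences differ between organs was not tested, since each group is 1 pool.

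The comparison of the organs asks how Treg cells of lymph nodes and spleen differ. In the same fit, 6 of the 12 receptor probe sets passed as higher in lymph nodes, from Ccr2, Ccr6, Ccr7 and Ccr9, and none as lower. Among all probe sets tested, 1.07% passed as higher in lymph nodes and 2.48% as lower. Without the trend limma called none of the 30328, with 2829 at an unadjusted p under 0.05, and the adjusted p-values of the 6 lay between 0.281 and 0.554.

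Ccr9 had the largest organ difference among the receptors. By the signals given above, all 4 lymph node arrays of the brightest probe set lay above all 4 spleen arrays. The lymph node minus spleen difference was 1.10 ± 0.09 (SE, 2 pools each; limma adjusted p = 3.96e-08), or 2.15-fold. Probe set 1421920_a_at had signals of 78.8 and 74.3 in GFP-RFP+ cells and 108.8 and 105.9 in GFP+RFP+ cells of lymph nodes, and of 41.5 and 38.7, and 54.0 and 52.3, in those of spleen. The organs did not overlap there either, and the difference was 0.97 ± 0.13 (limma adjusted p = 5.80e-05). Probe set 1421919_a_at gave 1.19 ± 0.21 (limma adjusted p = 0.00128), or 0.72 with the pseudocount, and 1446038_at, called present in 2 arrays, gave -0.11 ± 0.43.

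Ccr6 was also higher in every lymph node array than in every spleen array. The difference was 0.75 ± 0.07 (SE; limma adjusted p = 2.62e-07), or 1.69-fold. It was 0.92 in GFP-RFP+ cells and 0.58 in GFP+RFP+ cells. Ccr6 thus had a larger organ difference than population difference, as had the 3 called Ccr9 probe sets, while the opposite held for Ccr2, Ccr4, Ccr7, Ccr8 and Ccr10.

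The brightest Ccr2 probe set was 0.67 ± 0.11 higher in lymph nodes (SE; limma adjusted p = 3.90e-04), but 1421187_at (0.38 ± 0.13, limma adjusted p = 0.161) and 1421188_at (0.12 ± 0.23, limma adjusted p = 0.908) did not pass, and averaging the Ccr2 probe sets gave 0.39 with a limma adjusted p of 0.165. Ccr7 passed with 0.32 ± 0.06 (SE; limma adjusted p = 0.00145). That call rested on the first spleen GFP-RFP+ array, without which the difference was 0.16 (limma adjusted p = 0.557); without the second it was 0.48. The spleen GFP-RFP+ arrays were 0.65 apart for Ccr7. Ccr4 (0.46 ± 0.21), Ccr8 (0.28 ± 0.19) and Ccr10 (0.45 ± 0.21) were not called, with limma adjusted p-values of 0.36, 0.634 and 0.358.

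**Figure D2:**
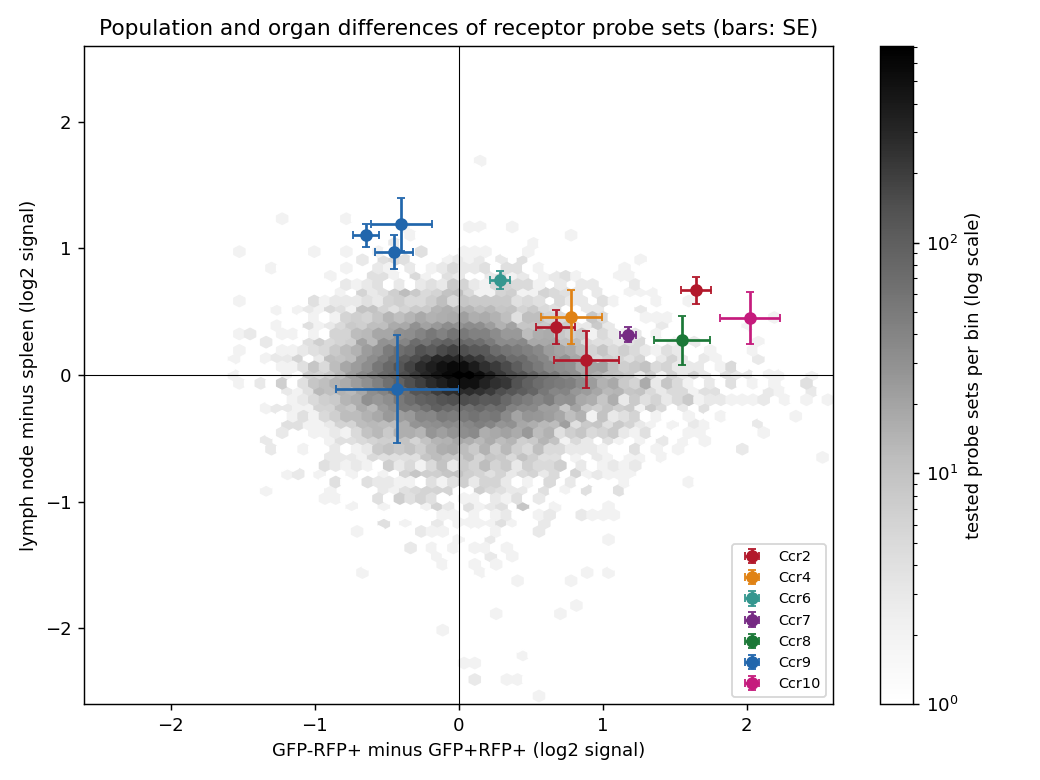
Log2 difference between the populations (x axis) and between the organs (y axis), with coloured points for the 12 receptor probe sets with SE bars from limma and grey bins for the number of tested probe sets on a log scale; 206 tested probe sets lie beyond the axis limits. Ccr10, Ccr2, Ccr8 and Ccr7 lie to the right, and 3 Ccr9 probe sets lie at the upper left, with population differences of -0.64 to -0.40 and organ differences of 0.97 to 1.19.

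Spleen pools carried more signal of other blood cells. The 6 myeloid markers summed to 131.2 to 152.9 in the lymph node arrays and to 1017 to 1887 in the spleen arrays. Of these 6, all tested, 5 passed as lower in lymph nodes, compared with 2.48% of all probe sets tested. Csf1r, the receptor of macrophage growth factor, chosen for mention after its values were seen, had signals of 18.8 to 25.4 in lymph nodes and 564.1 to 876.8 in spleen. The 3 erythroid markers summed to 19.4 to 21.8 in lymph nodes and 194.0 to 507.4 in spleen, and the 6 B cell markers to 180.8 to 269.8 and 398.2 to 637.1. Of the B cell markers Pax5 was called present in no array. By population, in lymph nodes the myeloid sums were 131.2 and 152.8 in GFP-RFP+ cells and 131.4 and 152.9 in GFP+RFP+ cells. In spleen they were 1318 and 1887 in GFP-RFP+ cells and 1017 and 1375 in GFP+RFP+ cells. The 5 represented dendritic cell markers summed to 133.2 and 147.1 against 115.0 and 122.4 in lymph nodes and to 208.2 and 213.1 against 122.3 and 150.8 in spleen. The erythroid sums in spleen were 433.4 and 507.4 against 194.0 and 333.3. The B cell sums were 180.8 and 211.9 against 264.2 and 269.8 in lymph nodes and 473.2 and 637.1 against 398.2 and 585.7 in spleen. Of the 6 myeloid markers tested 1 passed as higher in GFP-RFP+ cells, Lyz2 (0.53 ± 0.13, SE; limma adjusted p = 0.00361), although its lymph node arrays overlapped. Of the 4 dendritic markers tested also 1 passed as higher, Tcf4 (0.72 ± 0.14, SE; limma adjusted p = 4.18e-04). Of the 5 B cell markers tested 1 passed as lower, Cd79b (-0.60 ± 0.11, limma adjusted p = 2.47e-04), although its spleen arrays overlapped. Among all probe sets tested, 16.5% passed as higher and 9.1% as lower in GFP-RFP+ cells. The part of other blood cells in the receptor differences between populations and organs was not tested. In pooled cells, a smaller share of cells with a transcript and less of it per cell cannot be told apart.

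**Figure D3:**
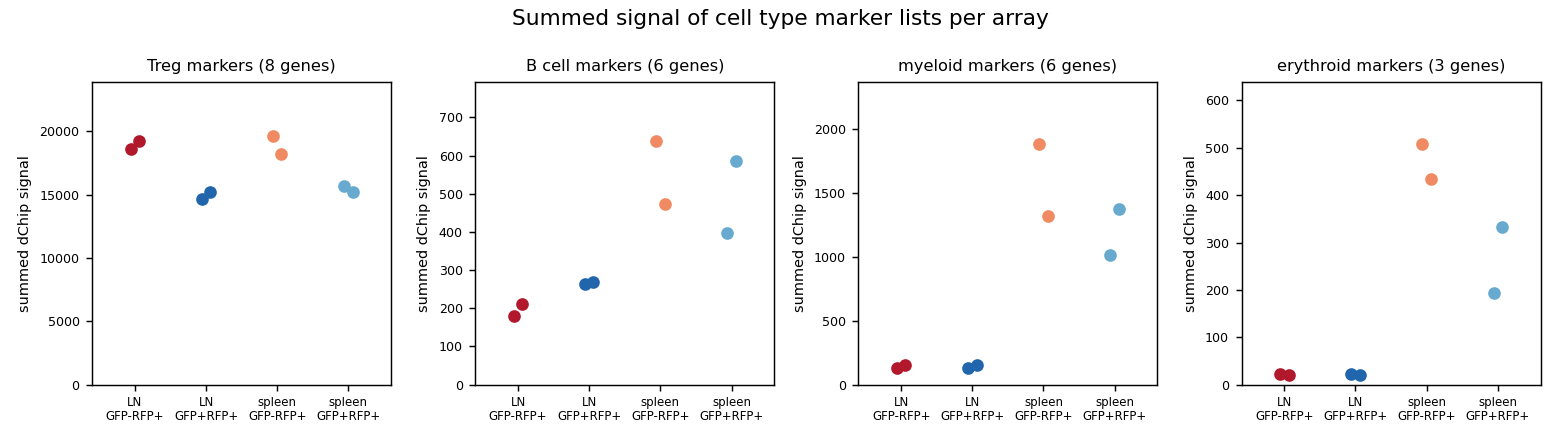
Summed dChip signal (linear scale, y axis from 0) of 4 marker lists in each array by group, with 1 point per array. Myeloid and erythroid sums were at most 152.9 and 21.8 in lymph node arrays and at least 1017 and 194.0 in spleen arrays. The Treg sums, from 14697 to 19649, were higher in GFP-RFP+ cells of both organs, mostly through Ctla4. Its signals were 5243 to 5506 in GFP-RFP+ arrays and 1843 to 2181 in GFP+RFP+ arrays, while Foxp3 and Il2ra of that list were lower in GFP-RFP+ cells.

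The Treg markers were read by the brightest probe set of each gene. Foxp3, Il2ra and Ctla4 were called present in all 8 arrays, as were 38.8% of all probe sets that are not controls. Presence is no test of the Treg label, since no other sorted cells were arrayed. Foxp3 had signals of 905.1 to 1084 in the GFP-RFP+ arrays and 1386 to 1580 in the GFP+RFP+ arrays, a difference of -0.57 ± 0.06 (SE; limma adjusted p = 3.37e-07). Of the 8 Treg markers, 4 passed as higher in GFP-RFP+ cells and 2, Foxp3 and Il2ra, as lower, compared with 16.5% and 9.1% of all probe sets tested. Il2ra encodes CD25, which with CD4 was a sort marker.

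Among 16 CC chemokine ligands, 15 were represented and 9 tested, of which 4 passed as higher in GFP-RFP+ cells and none as lower, where 16.5% of all probe sets tested passed as higher and 9.1% as lower. The median difference of the 9 was 0.45, compared with 0.02 over all probe sets tested. That median is the value of Ccl20, which did not pass (limma adjusted p = 0.0707). Ccl20, and Ccl3 and Ccl4 of the 4 that passed, each had its highest signals in 1 pool, as given below. The count and the median therefore rest in part on single pools. Ccl1, the ligand of CCR8, had signals of 67.8 and 65.4 against 26.2 and 19.8 in lymph nodes and of 66.1 and 58.1 against 37.7 and 11.7 in spleen, a difference of 1.55 ± 0.17 (SE; limma adjusted p = 5.98e-07). Ccl5 passed with 1.37 and was lower in lymph nodes than in spleen, with -1.27. Ccl4 passed with 0.90, mostly through 1 pool. Its signals were 84.6 and 124.0 in spleen GFP-RFP+ cells and 34.6 to 50.8 in the other 6 arrays. The Ccl4 difference was 0.31 within lymph nodes and 1.49 within spleen. The fourth, Ccl3, was called present in 2 arrays, the least that allowed a test. Its signals were 109.9 and 101.7 in spleen GFP-RFP+ cells and 4.39 to 16.9 in the other 6 arrays. It was called higher in GFP-RFP+ cells and lower in lymph nodes, but its high signals were those of 1 pool and no size is given for its differences. Ccl20, the ligand of CCR6, was also called present in 2 arrays only. Its signals were 84.5 and 67.5 in lymph node GFP-RFP+ cells and 32.8 to 44.1 in the other 6 arrays. It was called higher in lymph nodes, again with its high signals in 1 pool. Ccl17 and Ccl19, ligands of CCR4 and CCR7, were called present in no array.

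Ccrl2, an atypical receptor that binds chemerin, passed as higher in GFP-RFP+ cells. Its signals were 284.9 and 244.9 against 53.3 and 53.7 in lymph nodes and 727.2 and 707.1 against 64.4 and 82.96 in spleen. That is a difference of 2.80 ± 0.15 (SE; limma adjusted p = 9.09e-12).

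Downstream of the receptors, all 28 genes of receptor signalling and migration were called present in all 8 arrays, each by its brightest probe set. The share of 38.8% over all probe sets also counts the dimmer probe sets of a gene, so it is not a like measure. Of these 28, 8 passed as higher and 2 as lower in GFP-RFP+ cells, compared with 16.5% and 9.1% of all probe sets tested. Their median difference was 0.06, compared with 0.02 over all. The largest were those of Rgs2 (1.92 ± 0.07, SE; limma adjusted p = 6.80e-14) and Rgs16 (1.92 ± 0.12, SE; limma adjusted p = 1.91e-10), which encode proteins that shorten signalling by G proteins. Arrb1, which encodes a beta-arrestin, and Rgs19 were the 2 that passed as lower, with -0.41 and -0.20.

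Of 12 transcription factors tied to these receptors in T cells, 11 were tested, 7 passed as higher in GFP-RFP+ cells and 1 as lower, compared with 16.5% and 9.1% of all probe sets tested. Those shares also count dimmer probe sets, so they are not a like measure. The median difference of the 11 factors was 0.63, compared with 0.02 over all. Prdm1, which encodes BLIMP1, differed by 1.40 ± 0.10 (SE; limma adjusted p = 7.85e-10) and Irf4 by 1.35 ± 0.09 (SE; limma adjusted p = 2.37e-10). Both factors mark effector Treg cells. Id3, an inhibitor of E proteins, was the 1 that passed as lower, with -0.78 ± 0.07 (SE; limma adjusted p = 1.34e-08).

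The receptors also differed in how they varied together over the 8 arrays. Pearson correlations of log2 signal, which here mostly reflect the 4 groups the arrays share, were 0.93 between Ccr2 (1421186_at) and Ccr7, 0.94 between Ccr7 and Ccr8 and 0.94 between Ccr2 and Ccr10. Between Ccr9 (1427419_x_at) and Ccr6 the correlation was 0.62, and between Ccr9 and Ccr7 it was -0.29. The 3 Ccr9 probe sets called present in at least 7 arrays correlated with each other at 0.91 to 0.98.

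Among 21465 probe sets of other genes called present in at least 4 arrays, the closest to Ccr2 (1421186_at) over the 8 arrays were Rnase4 (r = 0.99), Rtn3 (r = 0.99) and Gzmb (r = 0.99), the last of which encodes granzyme B. The dimmer Ccr2 probe sets were closest to Tent4a, Vrk1 and Rps25 (1421187_at) and to Caskin2, Nol11 and Camk2d (1421188_at), with r = 0.982 to 0.997. The closest to Ccr7 were Fkbp1a, Chd2 and Skap1 (each r = 0.99), and those to Ccr10 were Myl4, Ctnna1 and Hnrnpu (each r = 0.99). Ccr8 was closest to Ndufa3, Emd and Eif2ak3 (r = 0.98 to 0.99), and Ccr4 to Alyref, E330018D03Rik and Rabgef1 (each r = 0.99). Ccr6 was closest to Pdk1, Vdac1 and 1810037I17Rik (r = 0.98 to 0.99). The brightest Ccr9 probe set was closest to Psma5, Shmt1 and Igfbp4 (each r = 0.99). Probe set 1421920_a_at was closest to Egr3, Psma5 and Igfbp4, and 1421919_a_at to Snrpe, Rab40c and Wdyhv1 (r = 0.98 to 0.99). Igfbp4, by the probe set nearest to 1427419_x_at and like Ccr9, was lower in GFP-RFP+ cells (-0.81) and higher in lymph nodes (1.23). These shared directions follow from its choice by correlation over the same arrays and are no separate result. The 8 arrays share 4 groups, and these names describe likeness of pattern only.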

How the data were processed

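Per the file headers, the authors deposited dChip model-based expression signal as intensity on a linear scale, normalized to 1 baseline array and not log transformed, with detection calls. The submitters' processing notes name RMA, whereas all 8 signal columns of the deposited dChip table (expression index scores of arrays not named there by sample) are identical to 1 column each of the value table that carries sample names. Groups were read from that value table, and calls were counted over arrays without groups. The authors' genome build is not given in the sources used here; promoter sequences and their coordinates are RefSeq's.

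Log2 signals without pseudocount were fitted with limma 3.58.1 in R 4.3.3. The 2 arrays of each pool were averaged, which leaves 1 residual degree of freedom. Probe sets called present in at least 2 of 8 arrays were tested and 64 controls left out. The procedure was also run on simulated data in which all probe sets shared 1 spread between pools. That run bears on the code, not on the calls made here. For list counts, each gene was taken by its brightest probe set, a rule set after the data were seen. The shares over all probe sets tested also count the dimmer probe sets of a gene. They are therefore not a like measure for the list counts. Over all arrays, 24013 to 25329 probe sets were called present, and the median gap between duplicates was 0.16 on the log2 scale, the 95th percentile 1.01. Each group is 1 pool, so precision is limited by the number of pools, not of arrays.

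All members are named, with, for each, the 3 probe sets of other genes with the highest correlation. Marker lists covered Treg, B, CD8 T, myeloid, dendritic, NK, erythroid and stromal cells. Members, lists and rules were chosen with earlier results of these data known. A result on 1 other gene that the naming rule selects, and the counts of its list, are not reported here.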

Additional observations from a re-analysis of the deposited data

How the results depend on the processing

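The 12 tested receptor probe sets kept their direction between the populations with no filter, quantile normalization, a pseudocount of 16, arrays as samples, a replicate block, no trend, gene means and each array left out, as did the 6 that remain when presence in all 8 arrays is required. Ccr2 1460067_at was not tested. Without the trend limma called 0 probe sets in both comparisons and directions. Averaging the probe sets of a gene gave 2090 genes higher and 1102 lower in GFP-RFP+ cells, and 85 higher and 340 lower in lymph nodes, of fewer features tested. Quantile normalization gave 4422 lower in GFP-RFP+ cells, with 3787 higher. With no filter 184 probe sets were higher in lymph nodes, and with presence in all 8 arrays 215 were higher and 351 lower. Leaving out 1 array gave 3720 to 5742 higher and 2001 to 3095 lower in GFP-RFP+ cells, and 189 (without the first lymph node GFP-RFP+ array) to 512 (without the first spleen GFP+RFP+ array) higher and 529 to 1057 lower in lymph nodes. A pseudocount of 16 left 455 higher and 43 lower past 1 within lymph nodes, and 629 and 73 within spleen. It took the Ccr8 difference in lymph nodes to 0.83 and that of Ccr4 in spleen to 0.61, both then under 1. Quantile normalization took that of Ccr7 in lymph nodes to 0.96. The organ difference of Ccr2 1421188_at lay between -0.021 (without the first spleen GFP-RFP+ array) and 0.27 with 1 array left out. That of Ccr9 1446038_at lay between -0.46 and 0.24, above 0 in 4 of 8 cases (0.16, 0.24, 0.02 and 0.08), and was 0.79 when the gene's probe sets were averaged. The Ccr9 average gave a population difference of -0.48 (limma adjusted p = 0.044), a call that 1421919_a_at and 1446038_at did not reach alone. Arrays taken as separate samples ended the organ call of Ccr7 (limma adjusted p = 0.104). Deviations of arrays with the same technical replicate number correlated at -0.07 to 0.04, so no shift shared by replicate number was seen. Whether arrays with the same number were processed together cannot be read from these correlations. With the replicate block 5439 probe sets were higher and 3054 lower in GFP-RFP+ cells. The cause of these changes was not tested.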

Other observations

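Marker lists not described above gave these values. The CD8 T cell markers Cd8a and Cd8b1 summed to 135.0 to 191.3 over all 8 arrays, and neither passed the limma test in either comparison. The 4 NK cell markers summed to 51.2 to 76.6 in the GFP-RFP+ arrays and 86.8 to 109.8 in the GFP+RFP+ arrays. Of the 3 that were tested, 1 passed as lower in GFP-RFP+ cells, namely Eomes (-0.76 ± 0.15, SE; limma adjusted p = 6.99e-04), a T-box factor of NK and CD8 T cells that was chosen for mention after its value was seen. Ncr1 and Klra8 did not pass. Among all probe sets tested, 9.1% passed as lower in GFP-RFP+ cells. The 3 stromal markers summed to 15.0 to 32.8, and the 1 that was tested passed in neither comparison.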
